A study of Rattus norvegicus with 12 samples.

Results

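Gene expression in skin wounds of diabetic rats was compared between a commercial alginate dressing (Alg) and the saline-treated control over the course of healing. The comparison used 6 of the 12 RNA-seq libraries of the study, the 3 Alg libraries and the 3 control libraries of days 3, 7 and 14, and each Alg library was set against the control library of the same day. All rats were male Sprague-Dawley rats made diabetic with streptozotocin, and every animal carried a full-thickness punched wound on the shaved back, so diabetes, shaving and wounding were common to both groups. Alg wounds were covered with the alginate sheet, which was renewed after it had taken up exudate. The other 6 libraries came from wounds under d-SMG, the dried mucus gel of the snail Achatina fulica, or under GAG, the sulfated glycosaminoglycan prepared from it, on the same days, and they entered here as further dressings. Each combination of group and day was a single library, so the 3 days stood in for replicates. The streptozotocin rat lacks some traits of human diabetic ulcers, and the labels do not give the animal behind each library.

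Skin wounds close by re-epithelialization, in which basal keratinocytes of the wound edge and of the hair follicles migrate over the wound while macrophages clear debris and fibroblasts deposit collagen. Hair follicles cycle between growth (anagen), regression and rest. In anagen, matrix cells at the base of the follicle build the hair shaft and its inner root sheath from follicle-specific keratins, keratin-associated proteins and trichohyalin. Dermal adipocytes below the follicles expand during the same phase in rodent skin. In a block of wound tissue, fewer cells of a type and less RNA per cell cannot be told apart.

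Between 14780071 and 23921685 reads were assigned to genes in the 6 libraries (13748887 to 38302461 in all 12), and 15672 of 25620 genes had enough reads to be tested. Krt5 and Krt14, the keratin pair of basal keratinocytes, were abundant in all 6 libraries, at 919 to 3432 and 2416 to 8738 CPM, which marked the tissue as skin. CPM are reads per 1000000 reads of the tested genes, after trimmed-mean (TMM) scaling of the library size. Skeletal muscle genes held between 1.73% and 17.5% of the reads of a library, so muscle transcripts had unequal shares between the blocks. The amount of muscle tissue in each block was not tested. The d-SMG library of day 3, which enters the tests through the spread and as another dressing, stood apart, with Krt14 at 21.2 CPM, Krt5 at 7.88 and Krt17 at 3.86, against lowest values of 2416, 919 and 199 CPM in the other 11 libraries. All fold changes below are log2 ratios of these TMM-scaled CPM, with fewer than 3 reads set to 3. TMM left the median log2 fold of all genes at 0.00, 0.02 and -0.02 on days 3, 7 and 14. Scaling by library size alone moved it to 0.14, -0.04 and 0.09.

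No single gene passed the test of Alg against control over the 3 days. In the edgeR quasi-likelihood test with the day as a paired term, 0 of 15672 genes (0%) reached a false discovery rate of 0.05, and the lowest value was 0.885. At an unadjusted p of 0.05 there were 472 genes (3.01%), 331 higher and 141 lower in Alg. Without the d-SMG library of day 3, a fit added after the data were seen, edgeR still called 0 genes, and 729 had an unadjusted p under 0.05. DESeq2 with the same terms called 87 genes, 83 higher and 4 lower, of which 52 and 3 belonged to the steady groups defined next. An edgeR fit on the 6 libraries alone called 11 genes, all higher in Alg, among them Krt40, Krt84, Krtap3-3, Krtap7-1 and Krtap8-1 of the hair shaft. The levels below are therefore given library by library, and no change of a single gene is claimed from the main test.

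On single days the 2 conditions differed in many genes. On day 3, 1734 genes (11.1%) were at least 2-fold higher and 1196 (7.63%) at least 2-fold lower in Alg. The corresponding counts were 1885 (12%) and 1750 (11.2%) on day 7, and 1379 (8.8%) and 1665 (10.6%) on day 14. A fold on one day rests on a single pair of libraries and has no replicate check. Many of these differences did not persist, since 1204 genes (7.68%) were at least 2-fold higher on one day and at least 2-fold lower on another. Genes with the same sign on all 3 days numbered 2006 higher (12.8%) and 1787 lower (11.4%), and the Alg and control libraries did not overlap at all for 925 higher (5.9%) and 692 lower genes (4.42%).

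Genes at least 2-fold apart in the same direction on each of the 3 days are called steady here. Steady genes were mostly higher in Alg, with 218 higher (1.39%) against 30 lower (0.191%). The threshold itself separated near neighbours. Serpina3n lay just inside on the higher side with a smallest daily log2 fold of 1.0013, and Fam155b just outside at 0.9987. On the lower side Ly9 lay just inside at -1.0013 on day 3, and Gvin1 missed it at -0.99 on day 14. Of the 218 higher genes, 28 were described as keratins or keratin-associated (12.8%), against 71 of all tested genes (0.453%). Symbols starting with Krtap, the keratin-associated proteins, made up 3 of the 218 (1.38%) and 19 of all tested genes (0.121%). A library with fewer than 3 reads contributed to 60 of the 218, and 73 had at least 100 reads in the higher library of every day. Among the 30 lower genes, 6 had that depth.

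The list farthest from 0 was that of the growing hair. In the list of 25 hair shaft and root sheath genes, 23 were higher in Alg on all 3 days and 21 of these were at least 2-fold higher each day, with median log2 folds of 5.46, 2.45 and 6.76 on days 3, 7 and 14. Medians over all tested genes were at most 0.02 from 0. Of all tested genes, 12.8% were higher on all 3 days and 1.39% at least 2-fold higher each day. All 25 hair genes had an unadjusted p under 0.05 (edgeR), against 3.01% of all tested genes, and none was called after adjustment. These p-values come from the same libraries and are not 25 separate pieces of evidence. This list and the lists below were chosen with earlier results of these data known. Their counts beside the share of all tested genes are therefore description and not independent support. The promoters of 4 of these keratins are shown because all 4 were at least 2-fold higher in Alg on each day. Each window runs from 250 bases before to 50 after the gene start as annotated in RefSeq (build GRCr8, minus strand), namely chr10:85529919-85530218 for Krt35, chr10:85483251-85483550 for Krt31, chr10:84771148-84771447 for Krt25 and chr7:134760984-134761283 for Krt71. Capitals mark the TATA box letters TATAAA and the LEF/TCF core CTTTGAA, the letters bound by the transcription factors of Wnt signalling.
Krt35: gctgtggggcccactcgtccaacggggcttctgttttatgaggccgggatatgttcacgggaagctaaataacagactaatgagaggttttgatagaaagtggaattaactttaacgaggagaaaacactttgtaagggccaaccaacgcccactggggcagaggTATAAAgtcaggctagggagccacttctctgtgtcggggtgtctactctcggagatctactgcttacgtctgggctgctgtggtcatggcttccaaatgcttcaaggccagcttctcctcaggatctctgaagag
Krt31: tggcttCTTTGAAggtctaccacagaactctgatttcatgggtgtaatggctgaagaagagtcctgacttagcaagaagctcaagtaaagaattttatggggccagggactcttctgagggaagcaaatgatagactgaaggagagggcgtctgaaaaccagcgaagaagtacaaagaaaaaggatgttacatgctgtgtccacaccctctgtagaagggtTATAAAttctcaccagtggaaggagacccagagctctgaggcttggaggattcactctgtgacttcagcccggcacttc
Krt25: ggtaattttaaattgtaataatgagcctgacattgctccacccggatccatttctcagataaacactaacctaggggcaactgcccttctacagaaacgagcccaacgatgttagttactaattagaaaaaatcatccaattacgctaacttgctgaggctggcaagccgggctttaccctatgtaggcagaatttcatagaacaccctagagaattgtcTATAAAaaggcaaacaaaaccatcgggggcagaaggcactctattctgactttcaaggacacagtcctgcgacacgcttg
Krt71: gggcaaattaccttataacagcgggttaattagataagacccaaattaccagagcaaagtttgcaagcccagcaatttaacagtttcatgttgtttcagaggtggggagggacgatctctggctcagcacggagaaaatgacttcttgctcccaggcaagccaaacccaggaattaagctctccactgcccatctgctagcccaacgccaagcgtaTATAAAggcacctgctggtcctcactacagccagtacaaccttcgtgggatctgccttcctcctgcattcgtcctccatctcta

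In these windows TATAAA began 29, 30 and 34 bases before the start in Krt31, Krt25 and Krt71 and 85 bases before it in Krt35. CTTTGAA was found in Krt31 only, 244 bases before the start. Both motifs were searched on both strands, and they do not overlap. Of the 25 listed hair genes, 21 had a window, of which 16 (76.2%) held TATAAA and 8 (38.1%) held CTTTGAA. Of the 218 steady higher genes, 139 matched 150 windows, of which 29 (19.3%) held TATAAA and 16 (10.7%) CTTTGAA. For the 30 steady lower genes, 24 matched 28 windows, with 10 (35.7%) and 7 (25%). Among all 33469 windows the shares were 14.2% and 5.4%. A match describes the letters and does not show a bound site.

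Krt35, a hair shaft keratin, was at 118, 4.69 and 268 CPM in the Alg libraries of days 3, 7 and 14. In the controls of the same days it was at 0.0840, 0.273 and 2.15 CPM, which came from 2, 4 and 44 reads. Every Alg library lay above every control library, and the log2 folds were 9.87, 4.10 and 6.96 (counting intervals 8.60 to 13.5, 2.68 to 6.02 and 6.53 to 7.42; edgeR log2 fold 7.81, unadjusted p = 0.0019). Krt31, another type I keratin of the shaft cortex, was at 26.3, 3.80 and 714 CPM under Alg and at 0.0420, 0.341 and 3.03 CPM in the controls (unadjusted p = 0.00317, edgeR). Its groups did not overlap either. Krt84, a type II hair keratin, had 40, 101 and 399 reads under Alg and 0, 1 and 3 reads in the controls. Against the floor of 3 reads its log2 fold was at least 3.96 on day 3.

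Genes of the inner root sheath showed the same order of days. Krt25 was at 355, 32.2 and 1480.3 CPM in Alg and at 0.462, 2.86 and 62.0 CPM in control, with log2 folds of 9.59, 3.49 and 4.58. Krt71, an inner root sheath keratin in which mutations give curly coats, was at 439, 78.3 and 4271 CPM in Alg and at 10.3, 10.6 and 205 CPM in control. In both genes Alg exceeded the control of the same day each time, but the Alg library of day 7 lay below the control library of day 14, so the groups overlapped. Tchh, the trichohyalin that hardens the inner root sheath and medulla, was at 1939.9, 336 and 34883 CPM in Alg and at 19.6, 67.5 and 2337 CPM in control (mean log2 fold 4.28 ± 2.18, SD over the 3 days). By day 14 trichohyalin alone took 3.80% of all Alg reads, with an exact 95% interval from 3.79% to 3.81%, whereas its control share was 0.237% (0.235% to 0.239%). The companion-layer keratin Krt75 did not overlap between groups, with 87.8, 21.0 and 174 CPM in Alg and 8.73, 4.57 and 11 CPM in control.

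**Figure D1:**
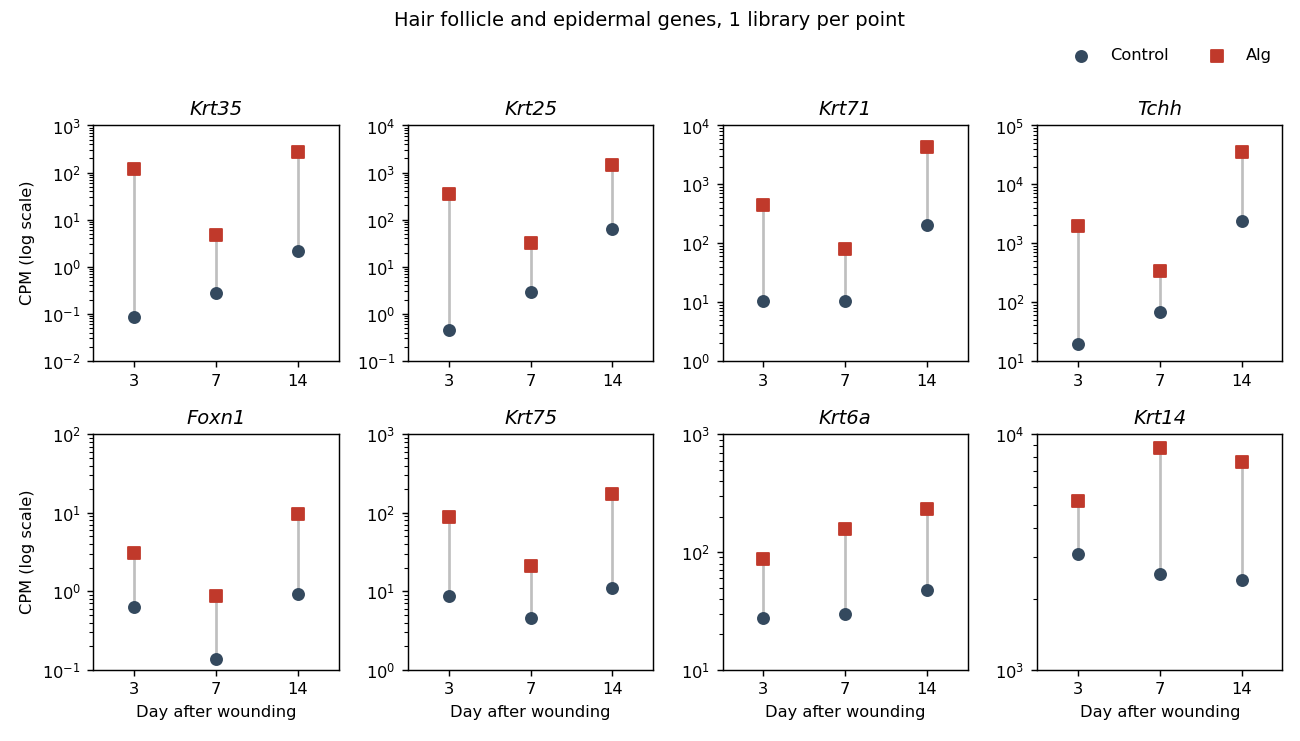
Levels of 6 hair follicle genes (Krt35, Krt25, Krt71, Tchh, Foxn1, Krt75), the wound-induced keratin Krt6a and the basal keratin Krt14 in each library. The y axis gives TMM-scaled CPM on a log scale, the x axis the day, squares Alg, circles control, and a grey line joins the libraries of a day. The Alg square lies above the control circle on all 3 days in every panel, and day 7 has the lowest Alg level in the 6 follicle genes.

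Summed over the 25 genes, hair shaft and root sheath transcripts held 0.349% (0.346% to 0.351%), 0.0463% (0.0452% to 0.0474%) and 5.002% (4.991% to 5.013%) of the Alg reads on days 3, 7 and 14. The control shares were 0.00358% (0.00335% to 0.00383%), 0.00865% (0.00819% to 0.00914%) and 0.271% (0.269% to 0.273%). Both groups had their highest share on day 14, and the lowest Alg share fell on day 7. These exact binomial intervals cover counting error only. Hair keratins and keratin-associated proteins form families of near-identical genes, so reads may be split between members and single values of Krt31, Krt33a, Krt33b, Krt81, Krt83 and Krt86 are uncertain. How much hair-bearing skin each block held was not recorded in the sources used here, and its part in these values was not tested.

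Regulators of the follicle were also higher. In the list of 16, 11 were higher in Alg on all 3 days and 7 at least 2-fold each day, against 12.8% and 1.39% of all tested genes. The list medians were 2.23, 1.35 and 1.47. Foxn1, the transcription factor whose loss makes nude mice and rats hairless, was at 3.08, 0.883 and 9.75 CPM in Alg and at 0.630, 0.136 and 0.929 CPM in control (log2 folds 2.29, 2.11 and 3.39). The Alg library was above its own control each day, on day 7 with 13 reads against 2 (set to 3), and the day 7 Alg value lay under the day 14 control. Hoxc13, which activates hair keratin genes, was at 3.87, 1.16 and 6.21 CPM in Alg and at 0.126, 0.341 and 0.196 CPM in control, without overlap. Msx2, a homeobox gene of the hair matrix, had log2 folds of 4.33, 1.15 and 4.28, also without overlap. Dlx3, another homeobox gene of the follicle, had 8 reads against 0 on day 7, and its log2 folds were 4.92 and 3.90 on days 3 and 14.

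Signals that drive the follicle were partly steady. Shh, the hedgehog ligand made by matrix cells, had log2 folds of 2.16, 1.41 and 3.17, the middle value from 8 against 3 reads. Gli1, a target and effector of hedgehog signalling, was at 21.1, 6.32 and 12.9 CPM in Alg and at 2.44, 2.59 and 6.21 CPM in control. The lowest Alg library of Gli1 lay just above the highest control. Lef1, the Wnt effector of the hair matrix, was not steady, since its log2 folds were 5.02 and 3.99 on days 3 and 14 but -0.02 on day 7. Sox9, Edar, Wnt10b and Cux1 likewise changed sign between days.

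The 2 other dressings gave a reference that does not use the control libraries. Krt35 was at 0.241, 40.8 and 103 CPM under d-SMG and at 168, 144 and 828 CPM under GAG on days 3, 7 and 14. Krt71 was at 1.85, 354 and 539 CPM under d-SMG and at 1055, 822 and 1063 CPM under GAG. The Alg levels of both genes lay between those of the other dressings on day 3, below both on day 7, and on day 14 between them for Krt35 and above both for Krt71. No gene separated Alg from d-SMG and GAG at a false discovery rate of 0.05 (0%, edgeR; DESeq2 also called 0), and 72 (0.459%) had an unadjusted p under 0.05. In the same edgeR fit Krt35 differed by a log2 fold of 0.14 (unadjusted p = 0.92) and Krt71 by 0.44 (unadjusted p = 0.75). Of the 218 steady higher genes, 5 had an unadjusted p under 0.05 in that comparison, namely Ces1a, Ces1c, LOC688459, Pck1 and Tecta, all higher in Alg. The median log2 difference of the 218 from the other dressings was 0.29. For the 30 steady lower genes it was -0.98, and 0 of them had an unadjusted p under 0.05. Both sets were chosen on the same Alg libraries that enter this comparison. Their counts and medians therefore lean toward the direction of that choice and are not independent support. The values also depended on the d-SMG library of day 3, in which epidermal keratins were low. Without it the median of the 218 was -0.09, that of the 30 was -1.09, and 8 of the 30 had an unadjusted p under 0.05 in edgeR. The log2 difference of Krt35 was then -0.72 (unadjusted p = 0.46, edgeR) and that of Krt71 -0.13 (unadjusted p = 0.9, edgeR), so both changed sign, and 254 genes had an unadjusted p under 0.05 and 0 were called.

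Genes of basal keratinocytes, which the outer root sheath of the follicle also makes, were higher in Alg by smaller factors. Krt14 was at 5221, 8738 and 7626 CPM in Alg and at 3093, 2554 and 2416 CPM in control. Krt5 was at 2173, 3432 and 3266 CPM in Alg and at 1137, 919 and 1383 CPM in control. Both genes were higher in every Alg library than in every control, with mean log2 folds of 1.40 ± 0.56 and 1.36 ± 0.49 (SD over 3 days), and neither passed an unadjusted p of 0.05 in the edgeR fit (0.341 and 0.31). Across the 10 tested genes of the basal list, 7 were higher on all 3 days, against 12.8% of all tested genes. The list medians were 0.47, 1.01 and 0.55. Col17a1 and Lamb3, parts of the anchorage of basal cells to the basement membrane, had mean log2 folds of 0.88 and 0.61 and overlapped between groups.

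Among keratins that appear at wound edges, Krt6a and Krt17 were steady as defined above. Krt6a was at 87.2, 156 and 230.3 CPM in Alg and at 27.5, 29.8 and 47.2 CPM in control, and Krt17 at 1072, 1136 and 1803 CPM against 224, 199 and 629 CPM. Neither pair of groups overlapped, and the log2 folds lay between 1.52 and 2.51 on every day for these 2 genes. Krt17 and Krt6a are also made in the outer root sheath and companion layer of the follicle, so the 2 sources cannot be told apart. Sprr1a, a small proline-rich protein of the cornified envelope, had log2 folds of 1.99, 3.14 and 1.07, with overlap because its level was highest on day 14 in both groups. In the whole list of wound keratins and alarmins 7 of 10 were higher on all 3 days, against 12.8% of all tested genes (list medians 0.70, 0.87 and 1.90). None of the 10 had an unadjusted p under 0.05 in edgeR. The suprabasal list, which holds the cornification genes, was less uniform, with 6 of 22 higher on all 3 days and medians of 0.45, 1.86 and -0.17. Its steady member Krt2, a keratin of the upper epidermis, had log2 folds of 3.09, 1.32 and 2.33 (edgeR unadjusted p = 0.001). The day 7 fold rested on 20 against 8 reads (counting interval 0.07 to 2.71), and the groups overlapped.

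Bnc1 and Ovol1, 2 transcription factors of epithelia, were among the steady higher genes. Bnc1, basonuclin of proliferating keratinocytes and the hair matrix, was at 24.8, 28.4 and 36.4 CPM in Alg and at 5.50, 4.97 and 8.16 CPM in control (mean log2 fold 2.28 ± 0.20). Ovol1, which restrains keratinocyte proliferation as cells differentiate, was at 9.79, 8.90 and 27.8 CPM against 2.86, 2.32 and 8.41 CPM (mean 1.81 ± 0.11). In both genes the smallest Alg value exceeded the largest control, although for Ovol1 only by 8.90 against 8.41 CPM.

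Adipocyte genes formed another group that was higher under Alg. In the list of 16, 10 were higher on all 3 days, 3 of them at least 2-fold each day, against 12.8% and 1.39% of all tested genes. The list medians were 0.96, 1.12 and 0.49. Pck1, the gluconeogenic and glyceroneogenic enzyme of fat and liver, was at 60.4, 12.2 and 56.5 CPM in Alg and at 5.63, 2.11 and 7.38 CPM in control. No Alg library fell below a control, and the mean log2 fold was 2.96 ± 0.45 (edgeR unadjusted p = 0.00563). Over the 3 days Pck1 was also higher in Alg than under the other dressings (log2 difference 2.02, unadjusted p = 0.0249 by edgeR, not called after adjustment). Without the d-SMG library of day 3 the difference was 1.52 (unadjusted p = 0.0473, edgeR). This order did not hold on day 7, when Pck1 was at 12.2 CPM in Alg, 11.56 under d-SMG and 27.85 under GAG. Retn, the adipokine resistin, was at 11.6, 7.68 and 10.7 CPM in Alg and at 2.44, 1.57 and 1.52 CPM in control, with log2 folds of 2.25, 2.29 and 2.82. Cidec, a lipid droplet protein, was at 14.0, 4.82 and 14.3 CPM against 3.48, 1.36 and 5.09 CPM, and Adipoq, the hormone adiponectin, at 78.5, 36.2 and 95.0 CPM against 27.3, 8.45 and 52.9 CPM. The last 2 overlapped, because their day 7 Alg libraries lay below a control library of another day. Cd36, Lpl, Pnpla2 and Plin4, which muscle and other cells also use, had log2 folds of both signs.

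Some steady genes encode enzymes of amino acid metabolism, a group for which no list was tested. Cbs, which starts the conversion of homocysteine to cysteine, was at 17.3, 10.3 and 18.3 CPM in Alg and at 0.966, 0.273 and 3.77 CPM in control. Cth, the next enzyme of that route, had 113, 87 and 148 reads in Alg and 56, 27 and 30 in control. Tdo2, which opens the tryptophan ring, was at 29.1, 6.79 and 24.0 CPM against 0.672, 0.545 and 5.87 CPM. The Alg and control libraries of these 3 genes did not overlap. Gnmt (methionine cycle) and Hpd (tyrosine breakdown) had log2 folds of at least 2.32 and 2.73 on every day. Cth, Gnmt and Hpd were picked after their values had been seen.

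**Figure D2:**
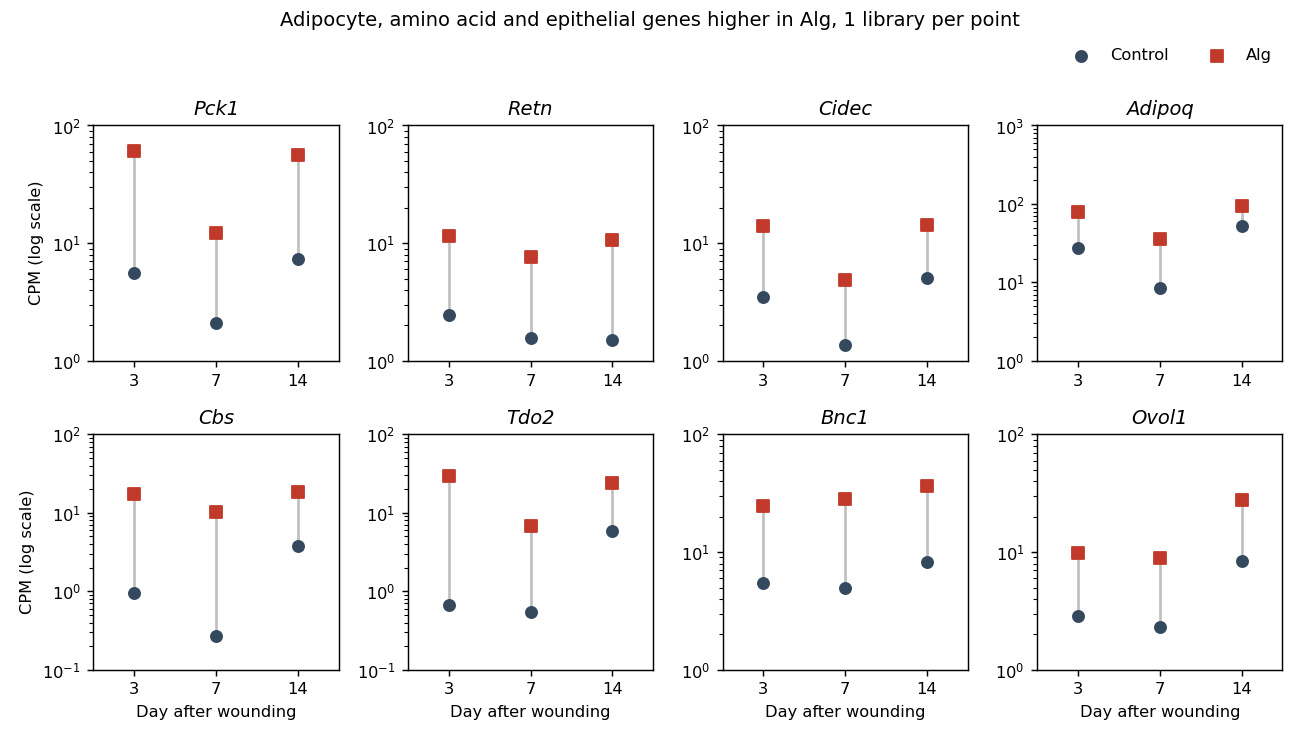
Levels of 4 adipocyte genes (Pck1, Retn, Cidec, Adipoq), 2 enzymes of amino acid metabolism (Cbs, Tdo2) and 2 epithelial transcription factors (Bnc1, Ovol1) in each library. The y axis gives TMM-scaled CPM on a log scale and the x axis the day, with squares for Alg and circles for control. Each Alg square lies above the circle of its day, and the gap is nearly the same on the 3 days in Retn, Bnc1 and Ovol1.

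Macrophage genes were among those lower in Alg. In the list of 21 macrophage and monocyte genes, 11 were lower in Alg on all 3 days, against 11.4% of all tested genes, and 8 did not overlap, against 4.42%. The medians were -1.45, -1.68 and -0.02, so the list as a whole was lower on days 3 and 7 only. Summed over the list, macrophage transcripts held 0.215% (0.213% to 0.217%), 0.157% (0.155% to 0.158%) and 0.305% (0.302% to 0.308%) of the Alg reads and 0.582% (0.578% to 0.585%), 0.402% (0.399% to 0.405%) and 0.301% (0.299% to 0.304%) of the control reads. On day 14 the 2 shares were nearly equal.

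Trem2, a lipid-sensing receptor of tissue macrophages, was at 14.6, 9.65 and 6.58 CPM in Alg and at 39.8, 55.2 and 18.4 CPM in control. Fcgr3a, the activating Fc receptor of monocytes, macrophages and NK cells, was at 1.37, 1.97 and 4.78 CPM against 21.9, 6.07 and 13.1 CPM. Both were lower in every Alg library than in any control and kept at least a 2-fold gap on day 14, with mean log2 folds of -1.82 ± 0.61 and -2.36 ± 1.42 (edgeR unadjusted p = 0.00549 and 0.0168). Lyz2, the lysozyme of macrophages and neutrophils, was at 483, 578 and 600.0 CPM against 2505, 1414 and 781 CPM. Ctss, a lysosomal protease that also trims the MHC class II chaperone, was at 36.4, 28.9 and 63.0 CPM against 159, 89.1 and 84.7 CPM. For Lyz2 and Ctss the gap was smallest on day 14, at log2 folds of -0.38 and -0.43. The complement C1q genes C1qa, C1qb and C1qc had log2 folds of -1.35 to -1.99 on days 3 and 7 and of -0.27, 0.23 and -0.33 on day 14.

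**Figure D3:**
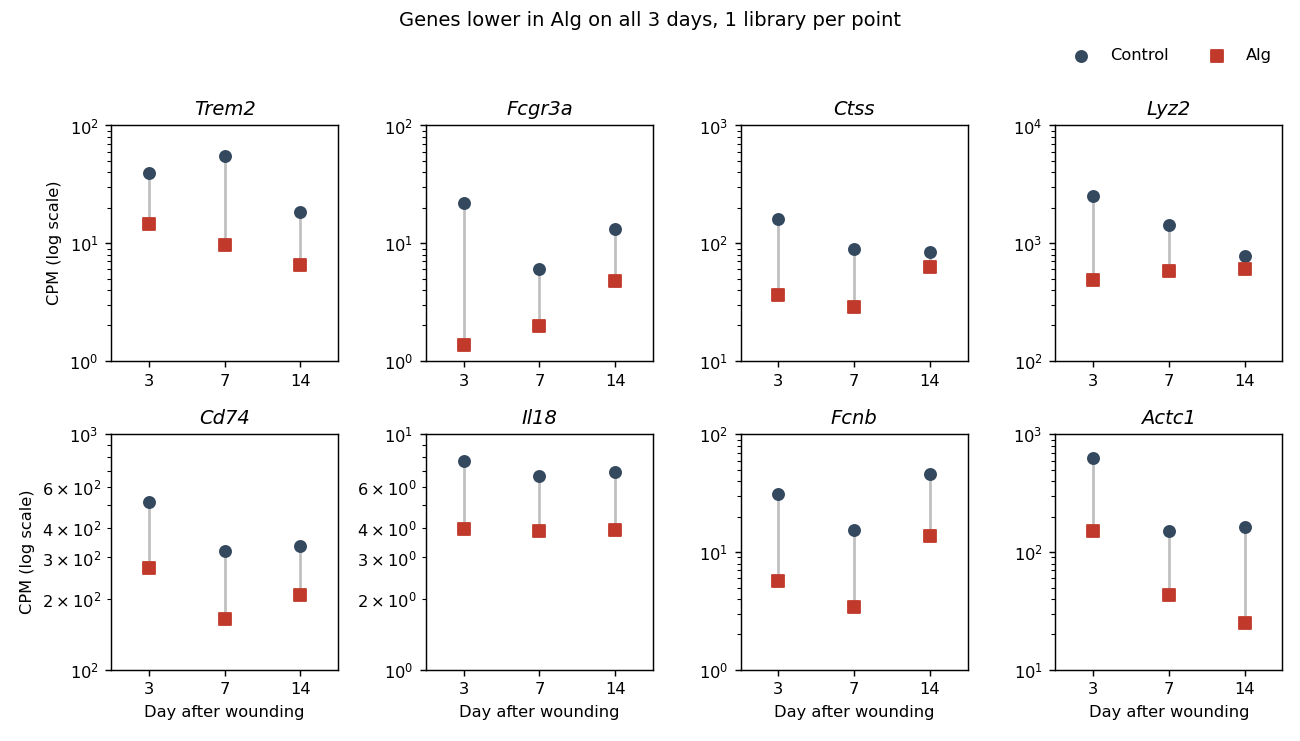
Levels of 4 macrophage genes (Trem2, Fcgr3a, Ctss, Lyz2), the MHC class II chaperone Cd74, the cytokine Il18, the lectin Fcnb and the fetal actin Actc1 in each library. The y axis gives TMM-scaled CPM on a log scale and the x axis the day, with squares for Alg and circles for control. Each Alg square lies below the circle of its day, and the gap of Ctss and Lyz2 is smallest on day 14.

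Other lower genes of the innate response included Fcnb and Slc11a1. Fcnb, the ficolin of myeloid cells that activates the lectin route of complement, was at 5.63, 3.40 and 13.7 CPM in Alg and at 31.2, 15.5 and 46.0 CPM in control. Slc11a1, the metal transporter of phagosomes, was at 3.67, 3.33 and 4.41 CPM against 16.1, 10.5 and 8.996 CPM. Neither overlapped between groups. C2, a protease of the classical complement route, was at 78.4, 39.9 and 114 CPM against 251, 132 and 190 CPM (mean log2 fold -1.38 ± 0.56, edgeR unadjusted p = 0.0356).

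Genes of antigen presentation were modestly lower. In the MHC class II list 6 of 9 were lower on all 3 days without overlap, against 11.4% of all tested genes lower on all 3 days and 4.42% without overlap, with medians of -1.21, -1.17 and -0.37. Ctss is a member of both this list and the macrophage list, so the lists are not separate. Cd74, the invariant chain that escorts class II molecules, was at 269.8, 165 and 208 CPM in Alg and at 515, 321 and 337 CPM in control (mean log2 fold -0.86 ± 0.15). RT1-DMa, which loads peptides onto class II, was at 4.70, 4.89 and 5.16 CPM against 12.7, 11.04 and 7.48 CPM. RT1-Db1, in contrast, had log2 folds of -1.18, 0.29 and 3.52, and reads of RT1 genes may be split between near-identical copies.

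Genes of cytotoxic lymphocytes were at very low levels. In the T and NK cell list, 7 of 20 were lower on all 3 days and 4 did not overlap, against 11.4% and 4.42% of all tested genes, with medians of -0.41, -1.46 and -0.33. None of the 20 had an unadjusted p under 0.05 in edgeR (0.209 for Prf1 and 0.0852 for Gzmb). Prf1, the pore-forming perforin, had 10, 7 and 7 reads in Alg and 29, 20 and 24 in control (log2 folds -1.31, -1.52 and -1.43). Gzmb, a granzyme, had 10, 6 and 9 reads against 64, 39 and 16, and Gzma 3, 1 and 2 against 44, 12 and 12. The counting intervals of the Prf1 folds were wide, from -2.52 to -0.24 on day 3. The T cell genes Cd3e and Cd8a were not steady. Cd3e had log2 folds of 0.37, -1.83 and -0.68, and Cd8a of -0.32, -2.32 and 3.45.

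Among genes the study followed as inflammation markers, a few were lower on every day. This list was drawn up by the study on these samples, so its direction is not independent evidence. Of its 50 tested genes, 14 were lower on all 3 days and 0 higher, against 11.4% and 12.8% of all tested genes. The list medians were -1.02, -0.83 and 0.22. Il18, an inflammasome cytokine that keratinocytes also make, was at 3.96, 3.87 and 3.91 CPM in Alg and at 7.72, 6.68 and 6.89 CPM in control. Its mean log2 fold was -0.86 ± 0.09 (SD over 3 days, edgeR unadjusted p = 0.0143). Cd86, a costimulatory molecule used to mark M1 macrophages, was at 0.685, 0.951 and 1.99 CPM against 3.32, 2.18 and 2.59 CPM. Il10, an anti-inflammatory cytokine, rested on 4, 9 and 8 reads against 43, 21 and 26, with log2 folds of -3.21, -1.23 and -1.36. Thus the pro- and anti-inflammatory genes Cd86 and Il10 were both lower in every Alg library.

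Several of the best known markers did not keep a direction. Nos2, the inducible nitric oxide synthase of M1 macrophages, had log2 folds of -2.61, -3.15 and 3.18, Il1b of -0.80, -1.67 and 1.19, and Tnf of -1.42, -1.10 and 0.61. All 3 were lower under Alg on days 3 and 7 and higher on day 14. Arg1, an M2 marker, had -0.02, -2.93 and 2.48, and Mrc1, which encodes CD206, 0.06, -2.90 and 0.52. Cd163, a scavenger receptor of resident macrophages, had 0.10, -2.26 and 0.87. Ccl5, a T cell chemokine, was lower each day but had only 1, 3 and 16 reads against 19, 22 and 43. Tlr5, a flagellin receptor, had -1.06, -0.16 and -0.78, and Jak3 0.24, -0.60 and 0.07. Fgf3 was below the read filter, with 0, 2 and 10 reads in Alg and 4, 0 and 6 in control.

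Interferon-responsive genes differed mainly on day 3. The list of 31 had medians of -3.77, 0.58 and -1.04. In it, 6 genes were lower on all 3 days, against 11.4% of all tested genes. Ifit3, an antiviral interferon target, was at 26.3, 56.0 and 47.6 CPM in Alg and at 769.9, 66.4 and 65.0 CPM in control. The control library of day 3 stood out, and the other 2 days differed by log2 folds of -0.25 and -0.45. Cxcl9, a chemokine that interferon gamma induces in macrophages, was at 15.5, 9.51 and 8.32 CPM against 102, 13.4 and 34.8 CPM (edgeR unadjusted p = 0.00962).

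Matrix, vessel and growth factor genes showed no common direction. Col1a1, the main chain of type I collagen, was at 2913, 3628 and 3937 CPM in Alg and at 1633, 15139 and 10393 CPM in control, and Col3a1, its type III partner, at 4035, 5009 and 7503 CPM against 3832, 18358 and 12955 CPM. The controls of days 7 and 14 held far more of both transcripts than that of day 3. The Alg libraries varied less, and both genes rose from day to day in them. The fibrillar collagen list had medians of 0.47, -1.84 and -0.21, and 3 of its 28 genes were lower on all 3 days. Col7a1, the anchoring fibril collagen made by keratinocytes, was higher each day by log2 folds of 0.43, 0.70 and 0.39. Vegfa, the main angiogenic ligand, was at 176, 139 and 106 CPM against 94.4, 101 and 92.7 CPM, without overlap, and Vegfb had -0.52, 0.56 and -0.85. Tgfb1, a profibrotic cytokine, had -0.69, -0.56 and -0.26, and Pdgfb, a platelet growth factor, 0.42, -0.84 and 0.10. Endothelial genes had medians of -0.12, -0.92 and 0.15, with 5 of 20 lower on all days. In the wound healing list of the study, also drawn up on these samples, 16 of 51 were higher and 5 lower on all 3 days, next to 12.8% and 11.4% of all genes.

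Both muscle lists had medians above 0 on day 7 and below 0 on days 3 and 14. The 30 genes of mature fibres had medians of -0.75, 1.20 and -2.52 and none kept 1 sign over the 3 days. Fibre transcripts held 6.21% (6.20% to 6.22%), 17.5% (17.5% to 17.53%) and 1.73% (1.72% to 1.73%) of the Alg reads and 10.3%, 7.86% and 8.63% of the control reads. The 16 genes of muscle regeneration had medians of -0.69, 0.30 and -3.22. Of these, 10 were higher on day 7 and 16 lower on day 14. On all 3 days 5 were lower in Alg, against 11.4% of all tested genes, and Actc1 was the 1 steady member. Actc1, the cardiac actin that regenerating fibres re-express, was at 151, 42.9 and 24.9 CPM in Alg and at 633, 149.7 and 162 CPM in control (mean log2 fold -2.19 ± 0.46, edgeR unadjusted p = 0.00556). It was lower on each day, including day 7 when fibre genes were higher, although the day 3 Alg library lay between the controls of days 7 and 14. Myh3, the embryonic myosin of new fibres, was at 428, 447 and 52.7 CPM against 738, 627 and 828 CPM, and Ncam1, an adhesion molecule of myoblasts and denervated fibres, had log2 folds of -0.08, -1.50 and -3.11. Draxin, an axon guidance protein, was at 7.34, 9.92 and 1.37 CPM against 16.3, 26.03 and 18.7 CPM.

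**Figure D4:**
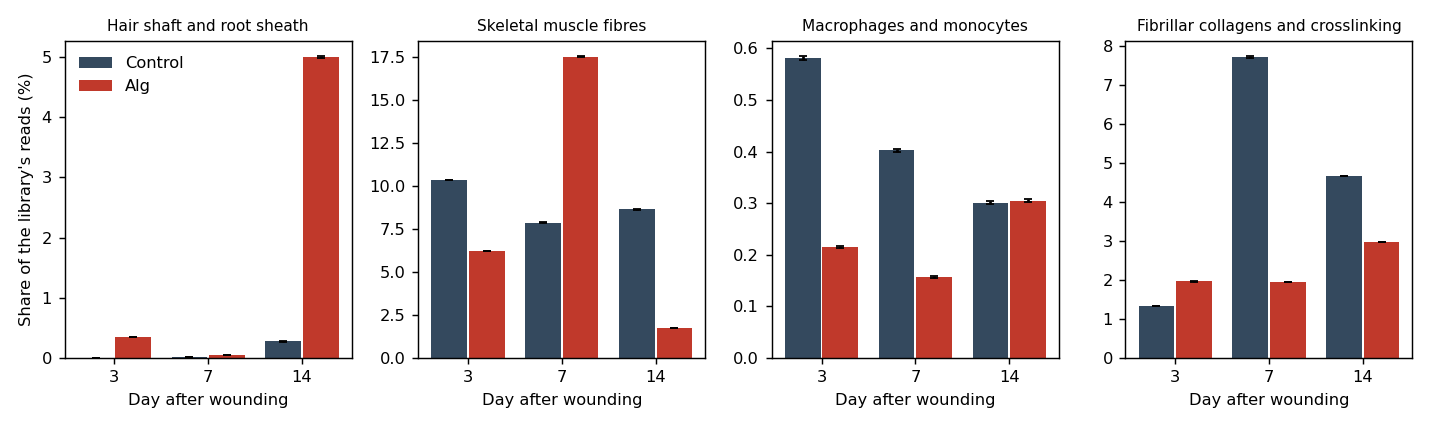
Share of each library's reads held by 4 gene lists (hair shaft and root sheath, skeletal muscle fibres, macrophages and monocytes, fibrillar collagens and crosslinking). The y axis gives percent of assigned reads and starts at 0, the x axis the day, and error bars are exact binomial 95% intervals for counting error only. Hair transcripts reach 5.002% of the Alg library of day 14 against 0.271% of the control, macrophage transcripts are lower in Alg on days 3 and 7 only, and muscle and collagen shares change order between days.

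The medians of the 39 gene lists by day show how far each difference persisted. Hair shaft, follicle regulator, wound keratin, adipocyte and basal keratinocyte lists, and the wound healing list of the study, stayed above 0 on all 3 days. Macrophage, MHC class II, T and NK cell and complement lists stayed below 0, with the macrophage median at -0.02 on day 14. The remaining contrasts were mostly of opposite sign on different days. Cell cycle genes, for example, had medians of 0.58, -0.54 and 1.86, and genes of the respiratory chain of -0.47, 0.60 and 0.04.

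**Figure D5:**
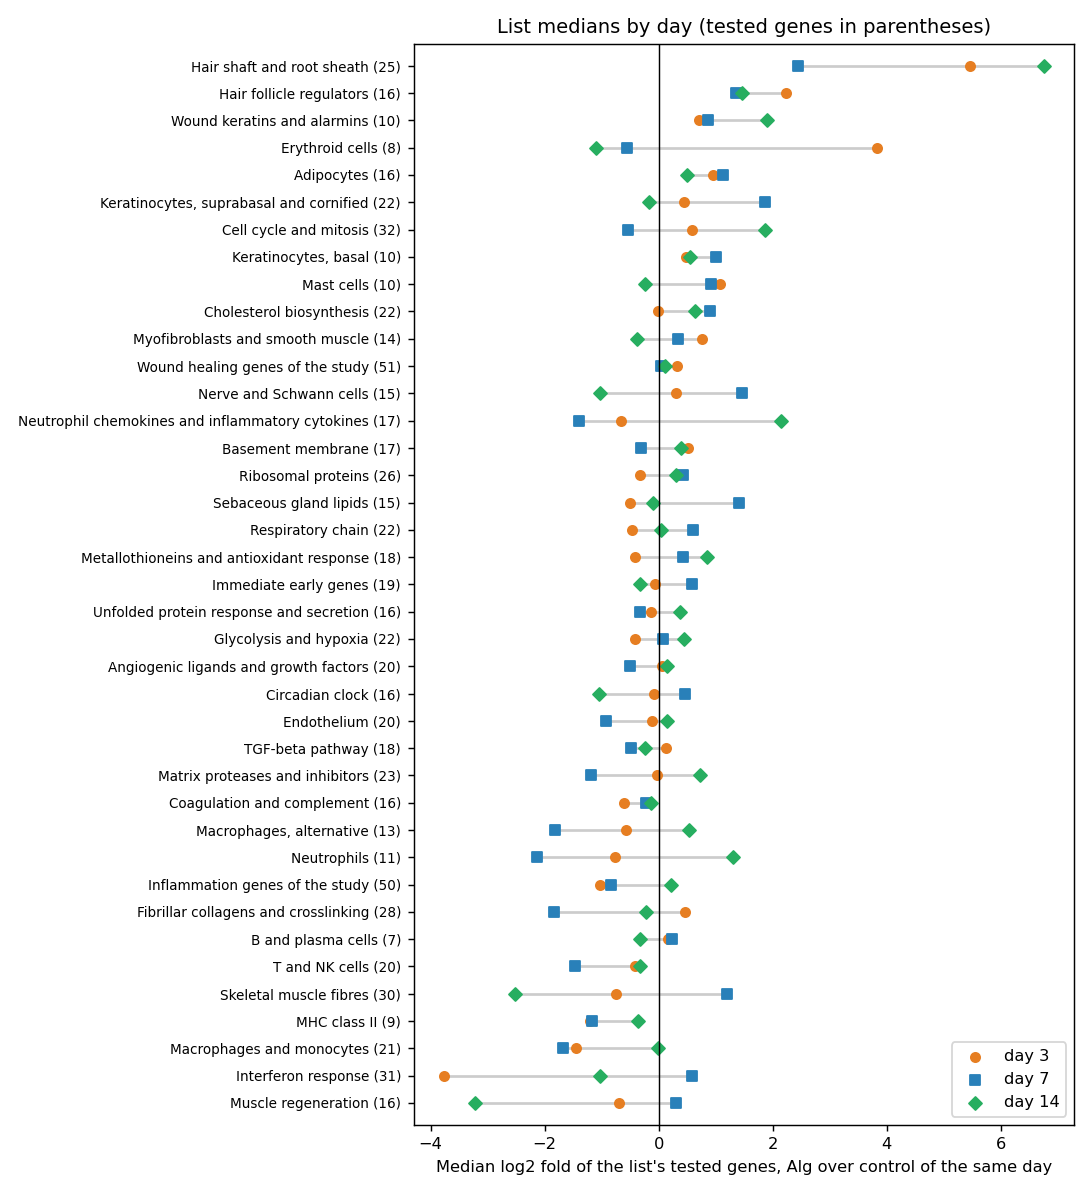
Median log2 fold of Alg over the control of the same day for 39 gene lists, ordered by the median of the 3-day means, with the number of tested genes in parentheses. Circles, squares and diamonds stand for days 3, 7 and 14, and a grey line spans the 3 days. The hair shaft list lies farthest to the right, at 5.46, 2.45 and 6.76, and lists such as erythroid cells or skeletal muscle fibres cross 0.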

How the data were processed

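RNA was extracted from wound tissue (1 library per group and day), depleted of ribosomal RNA and sequenced as stranded paired reads. The submitters' processing notes name bcl2fastq, FastQC, TopHat2 and edgeR; genome build, annotation and counting program are not given in the sources used here. The authors deposited a table of raw read counts per gene and a table of FPKM; 1 further column in each matched no described sample and was not used. Counts were filtered with filterByExpr, scaled by TMM and tested with the edgeR 4.0.16 quasi-likelihood test (R 4.3.3; all 12 libraries; day and group as terms; Benjamini-Hochberg over 15672 genes). DESeq2 1.42.0 on the same counts and limma 3.58.1 on log2(FPKM + 1) served as alternatives. Scripts were tested on simulated data. Daily folds set reads under 3 to 3; their 95% intervals are conditional exact intervals for counting error. Pairing came from the day label; deviations of same-day libraries correlated at 0.197, -0.0959 and 0.103 on days 3, 7 and 14. P-values measure the spread between these libraries only. Depth was 14780071 to 23921685 reads in the compared libraries. Named genes were the 12 highest and up to 12 lowest steady genes by smallest daily fold among those whose higher library had 100 reads or more each day and whose symbol was established, up to 4 members per list with one sign on all days (otherwise the 2 with most reads), and the markers followed by the study; other names were chosen after their values were seen. The comparison, the lists and the genes were chosen with earlier results of these data known. A result on 1 named gene is not reported here.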

Additional observations from a re-analysis of the deposited data

Results flagged for a closer look

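In all, 5 gene lists had medians at least 1 log2 unit from 0 in opposite directions on different days. With 1 library per group and day, these differences between days were not tested. Skeletal muscle fibre genes were higher in Alg on day 7 (median log2 fold 1.20) and lower on day 14 (-2.52), and 29 of the 30 genes followed the median on each of these days. Neutrophil genes were lower on day 7 (-2.14) and higher on day 14 (1.30), and the list of neutrophil chemokines and inflammatory cytokines went the same way (-1.40 and 2.15). Nerve and Schwann cell genes were higher on day 7 (1.47) and lower on day 14 (-1.03). Erythroid genes were higher on day 3 (3.82) and lower on day 14 (-1.11). On day 3 the haemoglobin gene Hba-a1 was at 153 CPM in Alg and 10.2 CPM in control.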

How the results depend on the processing

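No gene of Alg against control was called by edgeR under any other scaling, read filter or left-out library tried, or by limma on FPKM, whereas DESeq2 called 87 and the edgeR fit on 6 libraries called 11 (950 at an unadjusted p of 0.05). Leaving out libraries or days moved the count at an unadjusted p of 0.05 between 217 (without the Alg library of day 3) and 729 (without the d-SMG library of day 3, chosen after seeing the data). Without that d-SMG library 0 genes were called against control or against the other dressings. Without the replicate block for day, 0 genes were called and 534 had an unadjusted p under 0.05. Other scalings gave 219 to 243 steady higher and 20 to 29 steady lower genes. Steady higher genes numbered 64 on FPKM with a pseudocount of 1, 462 at 1.5-fold and 37 at 4-fold. Steady lower genes numbered 16 with at least 50 reads in 3 libraries, 15 with a floor of 10 reads, 4 and 14 on FPKM with pseudocounts of 1 and 0.1, 158 at 1.5-fold and 0 at 4-fold. With 1 day left out, so that only 2 had to pass, there were 347 higher and 169 lower genes without day 3, 510 and 351 without day 7, and 533 and 277 without day 14. Medians of 19 of the 39 lists changed sign under at least 1 alternative (25 values), mostly when a day was left out, the neutrophil and collagen lists among them. With a day left out the ranges were -0.49 to 1.91 for erythroid cells, -0.0036 to 1.15 for suprabasal keratinocytes, -0.90 to 0.075 for fibrillar collagens and -1.62 to 0.21 for skeletal muscle fibres. Of 312 alternative list medians 301 and of 1096 gene means 1070 stayed within the spread between days. A gene mean with 1 day left out cannot move beyond the spread of its own daily folds. Those gene means had to stay within it, so their part of the count is no check. A single library per group and day limits every daily fold, and low counts limit the lymphocyte genes.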

Other observations

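Genes outside the groups described above also kept one direction. Hdc, the histamine-forming enzyme of mast cells and basophils, was at 22.2, 9.17 and 13.8 CPM in Alg on days 3, 7 and 14 and at 5.75, 5.04 and 2.44 CPM in control, without overlap (mean log2 fold 1.77 ± 0.83, edgeR unadjusted p = 0.00729). Kit, the mast cell growth factor receptor that melanocytes also carry, had a mean log2 fold of 0.35. Of the 10 tested mast cell genes, 3 were higher on all 3 days, against 12.8% of all tested genes. The mast cell list as a whole did not keep its direction, with medians of 1.07, 0.91 and -0.24 and 7 genes lower on day 14. Slc7a11, the cystine importer, was at 10.3, 6.11 and 25.5 CPM against 2.35, 3.54 and 2.05 CPM, and Gpx2, a glutathione peroxidase of epithelia, at 3.13, 4.08 and 3.79 CPM against 1.26, 0.7497 and 1.22 CPM. Mt4, a metallothionein of squamous epithelium, had 1675, 7 and 2846 reads in Alg and 2, 4 and 11 in control, so that its level followed the days in the manner of the hair keratins. Igf2, a fetal growth factor, was at 22.3, 38.9 and 7.76 CPM against 55.3, 46.2 and 84.1 CPM.

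Pinlyp, a secreted protein with a phospholipase inhibitor domain, had the lowest p-value of the edgeR test (unadjusted p = 5.65e-05, adjusted p = 0.885) and was chosen after its value was seen. Its levels were 4.99, 2.65 and 11.9 CPM in Alg and 0.294, 0.613 and 1.37 CPM in control, and all Alg libraries lay above all controls. Genes of cholesterol synthesis were higher on all 3 days in 7 of 22 cases, against 12.8% of all tested genes. The list medians were -0.006, 0.90 and 0.64, and 12 of the 22 were lower in Alg on day 3. Among the 7, Sc5d had log2 folds of 0.94, 0.42 and 0.57 and Hsd17b7 of 0.82, 1.12 and 0.38.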
